A study of Mus musculus with 6 samples.

Results

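The genes for the proteins of the cytosolic small ribosomal subunit were examined in CD4+ T cells sorted from mouse liver. Members were taken by name: Rpsa, and every gene symbol made of Rps and a digit, leaving out the Rps6k kinase genes, rows with a numbered suffix or marked as pseudogenes, and Rps19bp1, Rps27, Rps27l and Rps4l. This gave 32 of 23505 gene rows, of which 31 had enough counts to be tested and 1, Rps10, did not. The ConA+SIM group came from wild-type mice gavaged with simvastatin, a statin that blocks the cholesterol-making mevalonate pathway, at 30 mg/kg, and given concanavalin A (ConA) by injection; this lectin from jack beans stimulates T cells and causes immune-mediated hepatitis in mice. The ConA group came from wild-type mice that received phosphate-buffered saline and the same injection, so all animals had ConA. Mice were gavaged each day over the 5 days that preceded ConA, once more at 1 h before the injection and a last time at 24 h after it. Sorted cells were CD3+, CD4+, CD8- and NK1.1-. Each group held 3 samples, and the labels do not state strain, sex, age or whether animals were pooled. Total counts per library lay between 17549429 and 25031862.

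The small, or 40S, subunit of the ribosome binds the messenger RNA and checks each codon, while the large subunit joins the amino acids. Its proteins wrap around the 18S ribosomal RNA and form a head, a body and a platform. In mammals their mRNAs belong to the TOP class, which begin with a C followed by a stretch of C and T bases and whose translation is switched on through the growth kinase mTORC1. Activated T cells make many new ribosomes before they divide.

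Small subunit genes took up a larger part of the transcripts in ConA+SIM. Their summed count made 6.76%, 7.01% and 5.99% of all counts in ConA+SIM replicates 1 to 3, against 3.55%, 3.89% and 4.19% in ConA replicates 1 to 3, and the groups did not overlap. Exact 95% binomial intervals of these shares were at most 0.0239 percentage points wide and cover counting error only. On the scaled level, in CPM (counts divided by the scaled library size), the sum averaged 69905 ± 5098 in ConA+SIM and 36896 ± 4025 in ConA (SD, n = 3 each), a ratio of 1.89. Over 5 ways of scaling the libraries the ratio ran from 1.70 to 1.91. In such bulk samples, fewer cells of a type and less RNA per cell cannot be told apart. No set test was made, and the sum is a description.

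Of the 31 tested members, 15 rose in ConA+SIM, 0 fell and 16 did not pass (edgeR quasi-likelihood test, Benjamini-Hochberg adjusted p under 0.05 over all 10509 tested genes). Over all tested genes 0.542% were called higher and 0% lower. The median log2 fold change of the tested members was 1.04, with a range from -2.26 (Rps28, a row of few counts) to 1.70, against a median of -0.041 over all tested genes. In 23 members every ConA+SIM value lay above every ConA value and in 0 below, where 9.18% and 8.57% of tested genes did so. At an unadjusted p under 0.05, 23 members were higher and 0 lower, beside 5.31% of tested genes higher. DESeq2 called 22 members higher, beside 3.35% of its genes, and limma-voom called 20, beside 1.03%. Neither called a member lower.

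**Figure D1:**
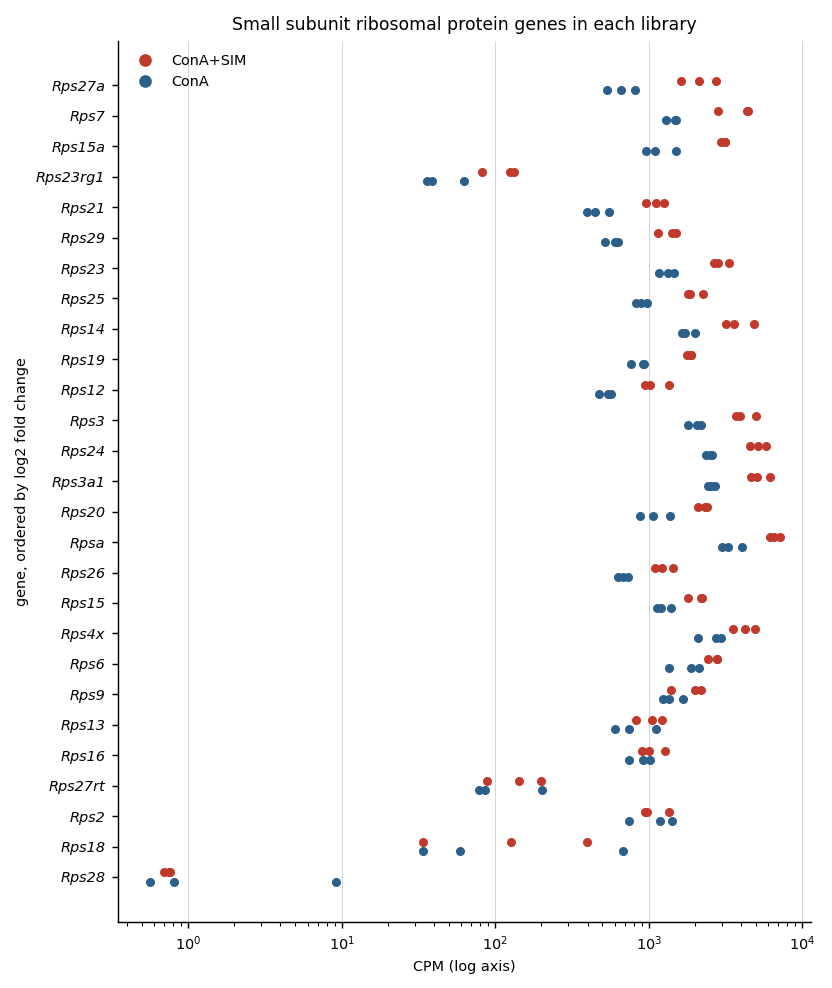
CPM (log axis) of 27 tested small subunit genes in each library, with ConA+SIM in red above ConA in blue and genes ordered from the largest to the smallest log2 fold change. In the 20 genes from Rps27a down to Rps6 all red points lie to the right of the blue ones, and in the 7 from Rps9 downward the groups overlap.

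The calls depended on the full set of 6 libraries and on the use of scaling factors. Leaving out ConA+SIM replicate 1 or 2, or ConA replicate 1, 2 or 3, gave 0 calls among the members. Leaving out ConA+SIM replicate 3 gave 1, Rps7. The log2 fold changes of the 15 then ran from 0.84 to 1.89 (adjusted p from 0.0375 to 0.269, edgeR). Each of the 15 had groups without overlap in the full set, so leaving out a library could hardly turn its sign. With total counts in place of TMM factors 0 members passed (adjusted p from 0.0526 to 0.0929, edgeR), with a median of 0.88 beside a median of -0.20 over all tested genes. Other factors kept the 15 calls: RLE factors gave 16 members, upper-quartile factors 15, and TMM factors drawn without cytosolic ribosomal protein genes 15.

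Proteins of the head, which contacts the transfer RNAs, were encoded by 13 tested members, of which 7 rose, 0 fell and 6 did not pass, with a median log2 fold change of 1.06. Rps27a (chromosome 11, 29545842 to 29548040, GRCm38), which encodes ubiquitin joined to a ribosomal protein, had 2758, 2119 and 1628 CPM in ConA+SIM replicates 1 to 3, against 534, 658 and 809 CPM in ConA replicates 1 to 3. The lowest ConA+SIM library lay well above the highest ConA library, and the log2 fold change was the largest of the family at 1.70 ± 0.24 (SE; adjusted p = 0.0301, edgeR).

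Rps19 (chromosome 7, 24884592 to 24889811), the gene most often mutated in Diamond-Blackfan anaemia, a human failure of red cell production, had 1876, 1875 and 1777 CPM in ConA+SIM, against 914, 772 and 929 CPM in ConA. The ConA+SIM libraries were close together and all above the ConA libraries, a rise of 1.08 ± 0.15 (SE; adjusted p = 0.0301, edgeR).

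Rps3 (chromosome 7, 99477896 to 99483709) encodes a protein at the entry of the mRNA channel that also takes part in DNA repair. It had 3913, 4999 and 3706 CPM in ConA+SIM, against 1791, 2049 and 2203 CPM in ConA, with no overlap, and rose by 1.06 ± 0.16 on the log2 scale (SE; adjusted p = 0.0331, edgeR).

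The head genes that rose also included Rps29, by 1.23 ± 0.18, and Rps25, whose protein is needed for initiation at some viral internal entry sites, by 1.13 ± 0.16 (SE). Rps12 and Rps20 fell just outside the threshold, at 1.07 ± 0.19 and 1.04 ± 0.19 (both adjusted p = 0.0592, edgeR), whereas Rps14 was the last member inside it at an adjusted p of 0.0397. Rps20 (chromosome 4, 3831584 to 3835655) had 2334, 2381 and 2085 CPM in ConA+SIM, against 878, 1063 and 1369 CPM in ConA, without overlap. It passed under DESeq2 and limma-voom, as did Rps12, Rps15, Rps26 and Rps4x. Rps6 and Rps23rg1 passed under DESeq2 but not under limma-voom. Rps15 (chromosome 10, 80292431 to 80294114), whose tail reaches toward the decoding site, had 2205, 2210 and 1800 CPM in ConA+SIM, against 1129, 1209 and 1401 CPM in ConA. Its groups did not overlap, but the log2 fold change of 0.73 ± 0.16 did not pass (SE; adjusted p = 0.131, edgeR). Rps16 stood at 0.25 ± 0.20 and overlapped between groups.

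The body and platform, which hold the decoding centre and the mRNA channel, were represented by 16 tested members, of which 8 rose, 0 fell and 8 did not pass, with a median of 0.91. Rps7 (chromosome 12, 28630847 to 28635953), whose protein can also bind Mdm2, the regulator of p53, had 4388, 4419 and 2839 CPM in ConA+SIM, against 1298, 1496 and 1481 CPM in ConA. ConA+SIM replicate 3 was the lowest of its group and still above every ConA library, and the rise was 1.45 ± 0.19 on the log2 scale (SE; adjusted p = 0.0301, edgeR). Rps15a (chromosome 7, 118104374 to 118116147) had 3122, 3163 and 2956 CPM in ConA+SIM, against 964, 1101 and 1510 CPM in ConA, with the ConA+SIM libraries close together and a rise of 1.37 ± 0.19 (SE; adjusted p = 0.0301, edgeR).

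Rpsa (chromosome 9, 120127766 to 120132369), also known as the laminin receptor precursor, was the most abundant member by CPM. It had 6561, 6196 and 7136 CPM in ConA+SIM, against 3022, 3263 and 4078 CPM in ConA, and its rise of 0.94 ± 0.15 was the smallest among the 15 (SE; adjusted p = 0.0344, edgeR). Rps24 (chromosome 14, 24490678 to 24496960), another gene mutated in Diamond-Blackfan anaemia in humans, had 5774, 5170 and 4536 CPM in ConA+SIM, against 2356, 2496 and 2584 CPM in ConA. The ConA libraries were nearly level and the ConA+SIM libraries all above them, a rise of 1.06 ± 0.14 (SE; adjusted p = 0.0301, edgeR).

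Rps3a1 (chromosome 3, 86137940 to 86142668) had 6138, 4664 and 5038 CPM in ConA+SIM, against 2423, 2703 and 2552 CPM in ConA, and rose by 1.04 ± 0.15 without overlap (SE; adjusted p = 0.0301, edgeR). Rps14 (chromosome 18, 60774596 to 60778546), whose loss of a copy underlies the anaemia of a human myelodysplastic syndrome, had 3592, 4849 and 3197 CPM in ConA+SIM, against 1734, 1636 and 2008 CPM in ConA. Its groups were apart, and the rise was 1.11 ± 0.18 (SE; adjusted p = 0.0397, edgeR). The remaining genes that rose were Rps21, by 1.26 ± 0.20, and Rps23, whose protein sits in the decoding centre and affects accuracy, by 1.15 ± 0.16 (SE).

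Several abundant body genes did not pass. Rps6 (chromosome 4, 86854099 to 86857367), whose protein is the classic substrate of the S6 kinases downstream of mTORC1, had 2442, 2794 and 2805 CPM in ConA+SIM, against 1348, 1891 and 2136 CPM in ConA. The groups did not overlap, and the log2 fold change was 0.58 ± 0.19 (SE; adjusted p = 0.374, edgeR). Rps4x (chromosome X, 102184941 to 102189391) had 4247, 3537 and 4912 CPM in ConA+SIM, against 2091, 2962 and 2738 CPM in ConA, also without overlap, at 0.70 ± 0.18 (SE; adjusted p = 0.223, edgeR).

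Rps2 (chromosome 17, 24718121 to 24721927), whose protein lines the entry of the mRNA channel, had 1361, 946 and 977 CPM in ConA+SIM, against 1184, 741 and 1413 CPM in ConA. The groups overlapped, and the log2 fold change was -0.023 ± 0.26 (SE; adjusted p = 0.999, edgeR). Rps9 and Rps13 stood at 0.38 ± 0.20 and 0.33 ± 0.25 (SE), and neither passed. Rps26, whose protein lines the mRNA exit channel, had a log2 fold change of 0.88 ± 0.17 and an adjusted p of 0.0749 (edgeR). In all, 8 members that did not pass had groups without overlap and the other 8 overlapped.

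**Figure D2:**
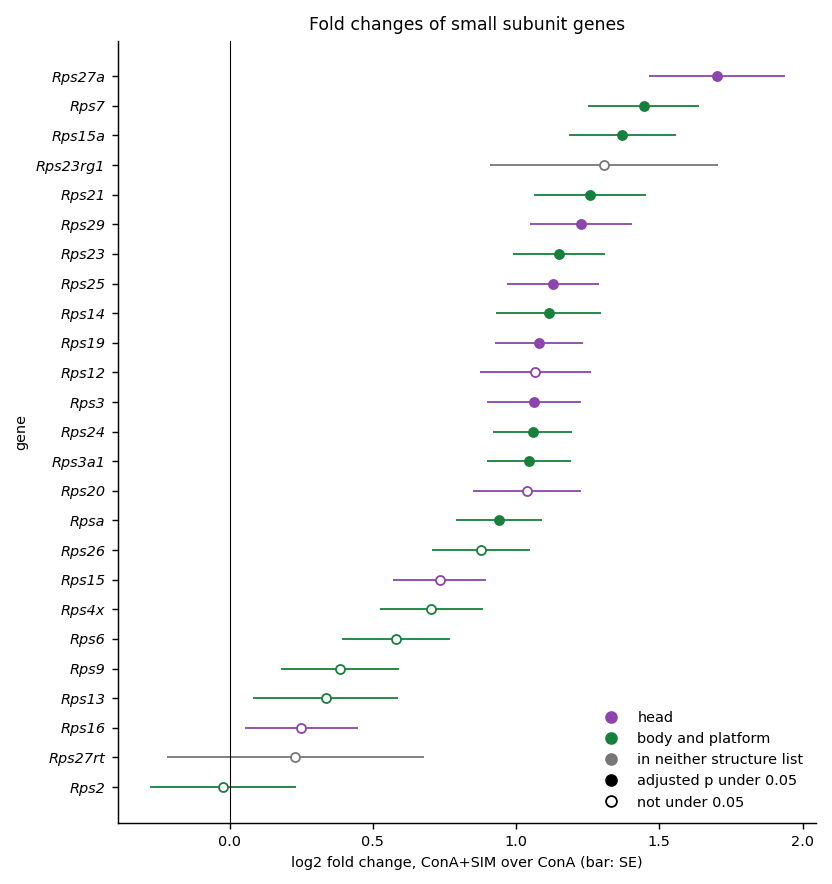
Log2 fold change of ConA+SIM over ConA with its standard error for 25 small subunit genes (among those left out are Rps18 and Rps28, with standard errors above 1), filled where the adjusted p was under 0.05 and coloured by position in the subunit. Head and body genes are mixed along the range, from Rps27a at 1.70 to Rps2 at -0.023.

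The members were also divided by evolutionary origin. Of 15 tested members whose proteins have a bacterial counterpart, 7 rose, with a median log2 fold change of 0.94, and of 14 without such a counterpart 8 rose, with a median of 1.06. Groups stood apart, with ConA+SIM higher, in 9 of the 15 members with a counterpart and in 13 of the 14 without. The difference between these divisions was not tested.

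Since each ribosome needs its proteins in equal number, the make-up of the small subunit transcript pool was compared as the share of each member in the summed member count, a measure that does not depend on how libraries are scaled. Shares of 9 members were higher in every ConA+SIM library than in every ConA library, and shares of 7 were lower. Taken as ratios to the same sum, 1.39% of all tested genes were higher in that way and 33.8% lower. The 7 lower members did not exceed that rate. Without ConA+SIM replicate 3 the lower group counted 11 members instead of 7.

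The largest gain in share was that of Rps27a, at 3.74%, 2.95% and 2.54% of the pool in ConA+SIM replicates 1 to 3, against 1.60%, 1.83% and 1.96% in ConA replicates 1 to 3. Rps7 held 5.95%, 6.15% and 4.43% in ConA+SIM, against 3.88%, 4.16% and 3.59% in ConA. Rps15a held 4.23%, 4.40% and 4.61% in ConA+SIM, against 2.88%, 3.06% and 3.66% in ConA. These genes, with Rps21, Rps29, Rps23, Rps25 and Rps24, were among the 9 with higher shares.

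The sum itself was higher in ConA+SIM, so a member that rose less than the sum lost share. Lower shares were found among members that had not passed the test on CPM, and they restate their small log2 fold changes. Rps2 held 1.84%, 1.32% and 1.52% in ConA+SIM, against 3.54%, 2.06% and 3.42% in ConA. Rps9, which like Rps2 bears on decoding accuracy, held 2.72%, 3.03% and 2.16% in ConA+SIM, against 3.73%, 3.77% and 4.04% in ConA. Rps16, Rps13 and Rps15 were lower in share as well, and so was Rps28, whose row held few reads.

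The order of the most abundant members stayed close between groups. Rpsa came first by mean share in both, at 9.55 ± 1.37% in ConA+SIM and 9.33 ± 0.47% in ConA (SD, n = 3 each), and Rps3a1, Rps24, Rps4x and Rps3 filled the next places in each. These 5 genes together made 36.1%, 34.2% and 39.5% of the pool in ConA+SIM, against 35.0%, 37.5% and 34.3% in ConA, so that the groups overlapped. Rps2 stood 25th by mean share in ConA+SIM and 16th in ConA, and Rps27a 13th in ConA+SIM and 23rd in ConA.

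**Figure D3:**
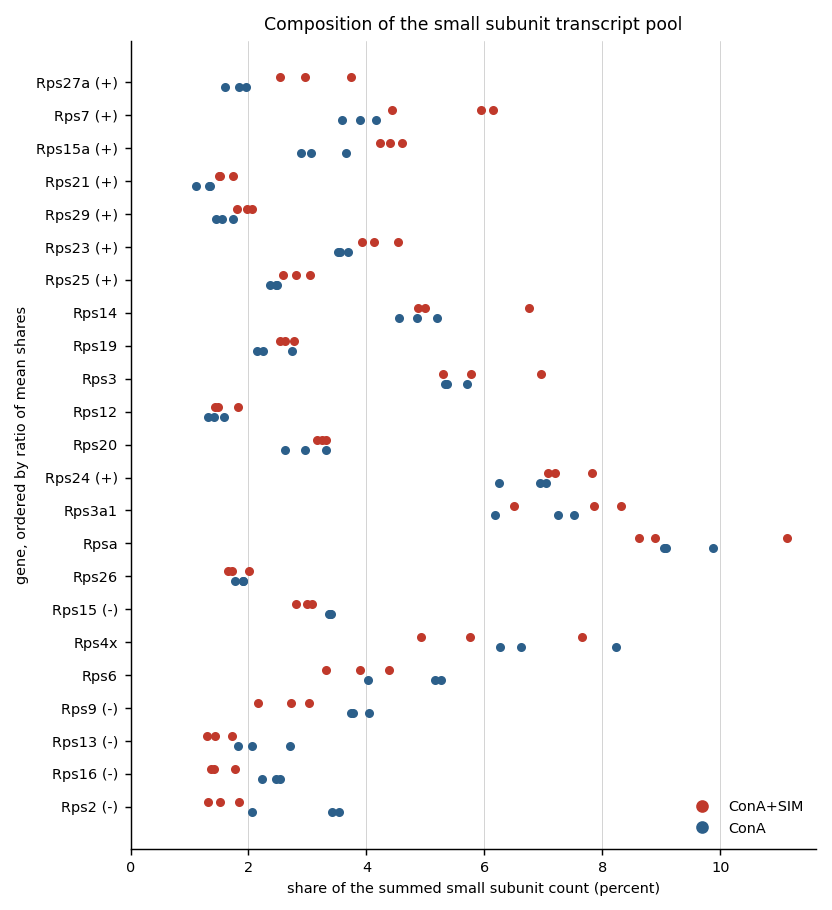
Share of each gene in the summed small subunit count (percent) in every library, ConA+SIM in red above ConA in blue, ordered by the ratio of mean shares, for 23 genes (among those left out are Rps10, Rps18, Rps23rg1, Rps27rt and Rps28, with low or uncertain counts). A plus marks genes higher in all ConA+SIM libraries and a minus genes lower in all; Rps27a heads the list and Rps2 closes it.

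Levels between genes were compared as CPM per kilobase of coding sequence, with the longest coding sequence of each gene in GENCODE M21. Reads on untranslated parts may be counted too, so the order depends on the length used. The transcript used for Rps24 has 1613 nt with 399 nt coding, and that for Rps14 has 597 nt with 453 nt coding. On that scale Rps24 was highest, at 12932 ± 1551 in ConA+SIM and 6212 ± 287 in ConA (SD, n = 3 each), followed in ConA+SIM by Rps14 at 8563, Rps29 at 8103 and Rps15a at 7899, which lay within the SD of Rps14 (1904) of each other. In ConA, Rps14 at 3958 and Rpsa at 3903 came next. Among the 27 members at or above 500 CPM on average, Rps2 was lowest in ConA+SIM, at 1208 ± 255 there and 1228 ± 377 in ConA (SD, n = 3 each). Rps12 was lowest in ConA, with 2494 ± 476 in ConA+SIM and 1190 ± 114 in ConA, and in ConA it and Rps2 differed by less than the SD of Rps2.

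Coding length moved with the fold changes of all genes. Among tested genes outside the ribosomal protein family, the median log2 fold change was 0.64 for the 172 with a coding length under 300 nt, 0.35 for the 1061 from 300 to under 600 nt, 0.16 for the 1432 from 600 to under 900 nt and -0.25 for the 4659 of 1500 nt or more. Small subunit genes had medians of 0.73 (4 members), 1.06 (17 members) and 0.96 (8 members) in the 3 shortest classes. The shortest class held Rps28, a row of few counts, at -2.26 and Rps27rt at 0.23, beside Rps29 at 1.23 and Rps21 at 1.26. From 900 to under 1500 nt the only member, Rps2, stood at -0.023, beside a median of -0.0041 for 2888 genes outside the family. How far length took part in the small subunit result was not tested beyond the corrections that follow. Correcting every library for its trend with transcript or coding length left 0 calls among the members and over all genes. The members' median was then 0.37 with transcript length, 0.51 with length and GC content, 0.48 with a transcript length trend drawn without ribosomal protein genes, and 0.60 and 0.65 with coding length, the trend drawn with and without those genes. The 15 members, picked for their rise in these same libraries, kept a positive log2 fold change in each, from 0.20 to 1.36 (adjusted p from 0.245 to 1, edgeR). Of all 31 tested members, 22 to 25 were positive after these corrections, against 28 without them.

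Within the family, the 27 more abundant members had coding lengths from 168 to 906 nt. Across them the log2 fold change had a Pearson r of -0.353 and a Spearman rho of -0.423 with coding length, and -0.352 and -0.337 with GC content; genes are not independent replicates, and these values describe the same 6 libraries. Among 210 tested genes outside the family that also averaged 500 CPM or more, 12 were called higher (5.71%), with a median log2 fold change of 0.067.

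**Figure D4:**
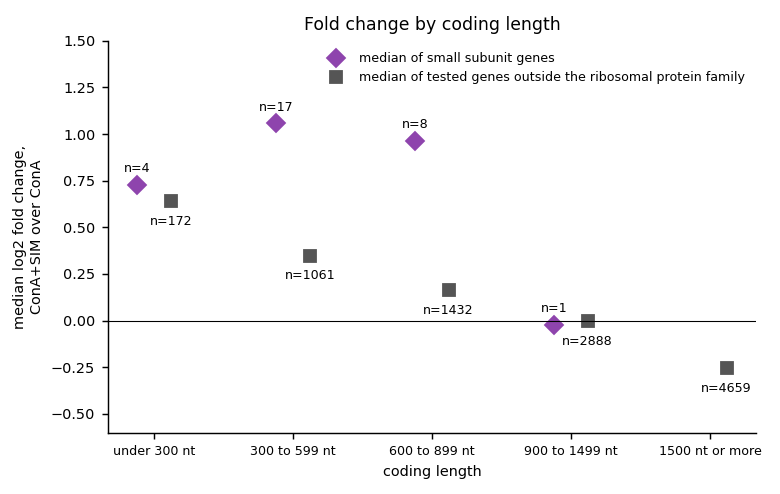
Median log2 fold change of ConA+SIM over ConA by coding length class, for small subunit genes (diamonds) and for tested genes outside the ribosomal protein family (squares), with the number of genes beside each point. The squares descend from 0.64 in the shortest class to -0.25 in the longest, and the diamonds lie at 0.73, 1.06 and 0.96 in the 3 shortest classes.

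Since many members rose together, the DNA around their annotated starts is shown for 6 of them that differ in fold change, each from 40 bases before the RefSeq start to 30 bases after it (GRCm38.p6, 5′ to 3′ on the coding strand). Capitals mark the longest run of C and T within the window, and in Rps7 the first of a pair of equal length, the other reaching the window's last base. TOP mRNAs begin with such a stretch, but the marked runs need not lie at the start. They begin between 29 bases before it (Rps7) and base 21 after it (Rpsa). Those of Rps24 and Rpsa begin with T, and those of Rpsa and Rps2 hold only 7 and 6 bases. The start used in these cells is not known from these data, and the listed start of Rps2 lies inside its gene span.
Rps7, chr12:28635924-28635993, minus strand: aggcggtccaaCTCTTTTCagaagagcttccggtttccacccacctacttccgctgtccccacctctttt
Rps15a, chr7:118116118-118116187, minus strand: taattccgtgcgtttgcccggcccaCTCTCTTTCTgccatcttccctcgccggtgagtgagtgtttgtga
Rps24, chr14:24490638-24490707, plus strand: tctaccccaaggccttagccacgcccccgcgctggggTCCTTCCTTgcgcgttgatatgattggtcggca
Rpsa, chr9:120127726-120127795, plus strand: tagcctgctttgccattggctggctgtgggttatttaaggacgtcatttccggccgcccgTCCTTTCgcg
Rps6, chr4:86857338-86857407, minus strand: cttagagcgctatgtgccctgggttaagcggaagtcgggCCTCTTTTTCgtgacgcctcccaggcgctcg
Rps2, chr17:24720023-24720092, plus strand: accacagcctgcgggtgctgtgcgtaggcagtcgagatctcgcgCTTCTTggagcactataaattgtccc

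The RefSeq table held 24 of the 32 members. A run of at least 8 C or T on the coding strand lay within that window in 11 of the 24 (45.8%), against 26.6% of 27025 genes. It was present in 4 of 10 members that rose and in 6 of 13 tested members that did not pass. The letters CCGGAAG, or their reverse complement, which is the core bound by ETS-type factors such as GABP and whose reverse complement can overlap a C and T run, were found between 250 bases before and 50 bases after the start in 10 of the 24 (41.7%), against 9.12% of genes. They were in 5 of 10 members that rose, Rps7 and Rpsa among them, and in 4 of 13 that did not pass, Rps6 and Rps2 among them. The letters CTCTTT on the coding strand were in 33.3% of members against 12% of genes, and TATAAA in 8.33% against 8.88%; 8 patterns were searched in all, and a match describes the letters and not a bound site.

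The genes that work beside the small subunit are given next. Of 43 tested assembly factors, which build the subunit in the nucleolus, 0 passed (24 had higher and 19 lower values, median log2 fold change 0.13). Nop58, a core protein of the particles that methylate ribosomal RNA, stood at 292 ± 16.4 CPM in ConA+SIM and 157 ± 20.9 in ConA (SD, n = 3 each; log2 fold change 0.89, adjusted p = 0.226, edgeR). Heatr1, a component of the early processome, stood at 48.8 ± 10.7 CPM in ConA+SIM and 102 ± 24.2 in ConA (log2 fold change -1.06, adjusted p = 0.404, edgeR). Of 22 initiation factors that bind the small subunit, Eif3e rose, to 1329 ± 226 CPM in ConA+SIM against 600 ± 73.3 in ConA (log2 fold change 1.15, adjusted p = 0.0397, edgeR), 0 fell and the list median was 0.025.

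Among 18 tested genes with other TOP mRNAs, Tpt1 and Eif3e rose and 0 fell (median 0.26). Tpt1, which encodes translationally controlled tumour protein, reached 9169 ± 1039 CPM in ConA+SIM against 3693 ± 303 in ConA (log2 fold change 1.31, adjusted p = 0.0253, edgeR). Of 14 regulators of mTORC1 and TOP mRNAs 0 passed and 11 had lower values (median -0.42); Tsc2, a brake on mTORC1, stood at 24.0 ± 12.5 CPM in ConA+SIM and 81.3 ± 17.2 in ConA (adjusted p = 0.335, edgeR). Of 6 tested genes of the Rps6k family 0 passed (1 had higher and 5 had lower values, median -0.82). The list mixes Rps6ka and Rps6kb genes and is not limited to kinases downstream of mTORC1. Rps6ka1 stood at 153 ± 35.7 CPM in ConA+SIM and 262 ± 66.3 in ConA (adjusted p = 0.443, edgeR). Rps6kb1 had the only higher value, at 89.5 ± 11.7 CPM in ConA+SIM and 83.0 ± 27.9 in ConA (adjusted p = 0.999, edgeR). Median transcript length was 3494 nt for the tested regulators and 4906 nt for the tested Rps6k genes, beside 2766 nt over all tested genes.

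The small subunit components outside the naming rule, Fau, whose product is cleaved to a ubiquitin-like protein and a ribosomal protein, and Rack1, a signalling scaffold on the head, did not pass. Fau stood at 1205 ± 103 CPM in ConA+SIM and 759 ± 152 in ConA, and Rack1 at 451 ± 14.0 CPM in ConA+SIM and 276 ± 18.8 in ConA (SD, n = 3 each; adjusted p = 0.286 and 0.252, edgeR). Among large subunit genes 20 of 47 rose and 0 fell (median 0.96), and among mitochondrial small subunit genes 0 of 27 passed (median 0.34); no difference of these lists from the cytosolic small subunit was tested. The ratio of small to large subunit counts was 0.786, 0.782 and 0.742 in ConA+SIM replicates 1 to 3, against 0.734, 0.736 and 0.722 in ConA replicates 1 to 3, without overlap.

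Some members have further rows with the same symbol and a numbered suffix, called copy rows here; whether reads were divided between the rows was not tested, and the values of these members are uncertain. Rps10 held at most 4 counts in a library, while the copy row Rps10_1 held 780, 551 and 1111 counts in ConA+SIM, against 303, 323 and 845 in ConA. The row Rps28 held 14, 13 and 13 counts in ConA+SIM, against 13, 16 and 234 in ConA, and Rps28_1 held 1183, 602 and 1295 in ConA+SIM, against 77, 878 and 153 in ConA. The copy row held more counts than the plain row in all 6 libraries for Rps10, and in all but ConA replicate 3 for Rps28.

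Rps18 was erratic within groups, with 2387, 6789 and 634 counts in ConA+SIM, against 15817, 669 and 1492 in ConA, and with its copies added 2838, 7229 and 2430 in ConA+SIM, against 15870, 928 and 1703 in ConA. Its log2 fold change of -0.48 ± 1.12 did not pass (SE; adjusted p = 0.999, edgeR) and ran from -1.68 to 2.00 when single libraries were left out. Adding the copy rows to their genes left 15 members called, but turned the log2 fold change of Rps28 to 1.40 (adjusted p = 0.781, edgeR), against -2.26 for its plain row, and left 6 members with lower shares of the pool instead of 7. The retrogene Rps23rg1, at 134, 124 and 82.5 CPM in ConA+SIM, against 36.1, 62.9 and 38.8 CPM in ConA, did not pass at 1.31 ± 0.40 on the log2 scale (SE; adjusted p = 0.335, edgeR), and neither did Rps27rt at 0.23 ± 0.45. Reads of either can also match their parent genes, and the sources used here do not say how reads with several matches were treated.

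The sorted cells were checked for markers, as summed CPM. All 8 T cell markers were tested and 0 passed (4 had higher and 4 lower values, median log2 fold change 0.046). Groups stood apart with ConA+SIM higher in 3 of the 8, and with ConA+SIM lower in 0. Cd4, a marker used in the sort, stood at 562, 441 and 469 CPM in ConA+SIM, against 545, 485 and 766 CPM in ConA, with overlap. Cd3d stood at 596, 553 and 702 CPM in ConA+SIM, against 312, 318 and 453 CPM in ConA, without overlap. Cd8a stood at 0 to 10.3 CPM in ConA+SIM and 0 to 15.9 in ConA. Erythroid markers summed to 235 to 343 CPM in ConA+SIM and 43.8 to 115 in ConA (1 of 5 tested genes passed), NK cell and ILC1 markers to 526 to 587 CPM in ConA+SIM and 188 to 213 in ConA (0 of 6 passed, Ncr1 at 0 in every library) and neutrophil markers to 583 to 940 CPM in ConA+SIM and 304 to 485 in ConA (0 of 6 passed). The neutrophil list was mixed, with 3 higher and 3 lower values (median 0.059): S100a8 and S100a9 made most of its sum, at 283 and 414 CPM in ConA+SIM and 106 and 180 in ConA, whereas Mpo stood at 3.28 CPM in ConA+SIM and 21.6 in ConA. These sums did not overlap between groups, and their part in the small subunit result was not tested. Sums of T cell, hepatocyte, macrophage, dendritic, endothelial, B cell, CD8 T cell and naive T cell markers overlapped between groups. Single markers could still lean one way. All 12 endothelial markers had lower mean values in ConA+SIM (median log2 fold change -0.84), but groups stood apart in only 1 of them. Their sum was 446, 851 and 811 CPM in ConA+SIM replicates 1 to 3, against 448, 2416 and 861 in ConA replicates 1 to 3. ConA replicate 2 thus weighed heavily in the ConA means. Of 12 tested macrophage and monocyte markers 10 had lower mean values (median -1.05), with groups apart in 2. Of 9 tested hepatocyte markers 7 had higher values (median 1.30). In these 3 lists 0 genes passed, and their part in the small subunit result was not tested. Among tested genes, 18.4% had 0 counts in ConA+SIM replicate 2, against 2.76% to 9.98% in the other libraries.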

How the data were processed

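Per the submitters' processing notes, the aligner HISAT2 2.1.0 and the mouse build GRCm38 were used. No counting tool, strand setting or treatment of reads with several matches is named in the sources used here. Per the labels and the values, the authors deposited raw counts per gene row, whole numbers without normalization, and column names equal to sample titles gave the groups; 0 columns were unused. Rows were kept by filterByExpr, scaled by TMM and tested with the robust quasi-likelihood F test of edgeR 4.0.16 in R 4.3.3. The contrast was ConA+SIM over ConA with no covariate, and Benjamini-Hochberg adjustment ran over all tested genes. The standard error is the log2 fold change divided by the root of F. CPM are counts divided by the TMM-scaled library size. DESeq2 1.42.0 and limma 3.58.1 were alternatives, as were other scalings and filters, the replicate block, leaving out each library, adding copy rows, and length and GC corrections.

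Members and gene lists were chosen with earlier results of these data known. Some members and a marker are counted in the totals but not reported here by name. Named members are otherwise the 4 largest and 4 smallest rises among those that passed, the 4 most abundant that did not pass, and Rps6, Rpsa, Rps3, Rps14, Rps19, Rps27a and Rps2; others are given by log2 fold change, and values of further genes were picked after they were seen. Lengths and GC content come from GENCODE M21, promoters and gene coordinates from RefSeq (GRCm38.p6). The labels do not say that samples of a group are separate animals, so p-values measure the spread between samples, which may be technical. No pair within a group agreed within sampling noise (chi-square 142 to 298 times its degrees of freedom). The fit was also run on simulated counts, with noise set below the common level of these data (coefficient of variation 1.12). It therefore gives no assurance at that level.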

Additional observations from a re-analysis of the deposited data

How the results depend on the processing

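The members called higher numbered 15, and 57 genes were called higher and 0 lower over all genes. Members called higher were 16 with RLE factors, 17 without a filter, 22 with DESeq2 and 20 with limma-voom with or without sample quality weights; 0 were called lower under any of the 23 alternatives. Leaving out single libraries gave 0 to 1 members and 0 to 3 genes called higher. Total counts and each length correction gave 0 members and 0 genes. Over all genes DESeq2 called 347 higher and 193 lower, limma-voom 108 and 7, and with quality weights 110 and 4; RLE factors and the unfiltered table each called 1 gene lower. The coding length corrections, and the length trend drawn without ribosomal protein genes, were chosen after seeing the data. The log2 fold change of Rps2, -0.023 with all libraries, was 0.0085 with the replicate block and ran from -0.26 to 0.21 when single libraries were left out (0.073 without ConA+SIM replicate 2, 0.052 without ConA+SIM replicate 3, 0.0077 without ConA replicate 1 and 0.21 without ConA replicate 3). Rps15 was at -0.041 after transcript length correction; the cause was not tested. In the pool, 9 to 11 members had higher and 7 to 11 lower shares without single libraries. Same-numbered libraries showed no shared deviation over all tested genes (correlations 0.0111, 0.00878 and 0.0328). This cannot exclude that the samples were handled in numbered pairs. With the replicate block 0 members and 0 genes passed and the 15 members stood at 0.95 to 1.69. Counting intervals of the summed shares were at most 0.0239 percentage points wide, and each group had 3 libraries.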
